A study of Caenorhabditis elegans with 12 samples.

Results

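The unstressed affl-2 mutant was compared with the wild type across all genes, using the 6 of 12 libraries whose animals were never heated. The wild type was N2, the standard laboratory strain of Caenorhabditis elegans (3 libraries), and the mutant was strain PS8060, affl-2(sy975) (3 libraries). Per the labels, 250 L4 larvae, the last larval stage before the adult, were picked to a plate that was sealed with parafilm and held at 20 °C for 30 min. The other 6 libraries came from the same genotypes held at 33 °C for the same time. They enter here as separate libraries in which the genotypes can be compared again. The molecular change in the sy975 allele and the number of outcrosses are not given in the labels, and the mutant is 1 strain, so anything else that differs between the strains cannot be told apart from the affl-2 mutation. RNA came from whole animals, so fewer cells of a type and less RNA per cell cannot be told apart either.

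AFFL-2 belongs to the AF4/FMR2 family. In mammals these proteins are scaffolds of the super elongation complex, which brings P-TEFb (the kinase CDK9 with cyclin T) to paused RNA polymerase II so that it can move into the gene body. Loci that must be transcribed quickly, such as heat shock genes, are well-known users of this step. The comparison without heat asks which mRNAs differ in the mutant before any heat shock is given.

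The libraries held 20.6 to 22.7 M estimated counts in N2 and 18 to 19.3 M in the mutant. Levels are given as CPM, counts scaled to the same library size after correction with TMM (trimmed mean of M values, which assumes that most genes do not differ). The TMM factors were 0.9865 to 1.0042 in N2 and 1.0852 to 1.1508 in the mutant. The 10 most abundant genes held 5.10 to 5.38% of an N2 library and 4.10 to 4.32% of a mutant library. Log2 changes are affl-2 over N2, with 3 libraries in each group. The ± value is an approximate standard error from the fit of all 12 libraries. It is the log2 change over the square root of edgeR's quasi-likelihood F statistic. It can understate the uncertainty of genes with almost no counts in 1 group, as for T08G11.2 below. A gene passed when its adjusted p in edgeR's quasi-likelihood test, with Benjamini-Hochberg adjustment over all genes tested, was under 0.05. The labels do not say that replicates were separate cultures, so p-values measure the spread between these libraries only.

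Of 15386 genes tested, 2150 passed (14.0%), with 1029 higher in the mutant (6.69%) and 1121 lower (7.29%). Changes beyond 2-fold numbered 347 higher (2.26%) and 448 lower (2.91%). The genes that rose had a median of 8.48 CPM in N2 against 15.5 CPM in the mutant, and 45.0% of them averaged under 10 CPM over the 2 groups, beside 42.3% of the genes that did not pass. The genes that fell had a median of 45.3 CPM in N2 against 26 CPM in the mutant. Taken as sums, the genes that fell went from 239095 to 144396 CPM and the genes that rose from 28128 to 42930 CPM. The genes that did not pass went from 740380 to 699930 CPM. After TMM scaling a library totals 996212 to 1014025 CPM in N2 and 869363 to 921847 CPM in the mutant. The genes summed were also picked by their difference, so the sums do not measure a net loss of mRNA. The split between directions depended on the scaling. With library size alone, which raises the median log2 change of all genes from 0.00 to 0.18, 2737 genes were higher and 649 lower, so 80.8% of calls were higher against 47.9% with TMM. With the replicate numbers as a block and mutant replicates 1 and 2 exchanged (hereafter the replicate block, explained under the processing), 3604 genes passed, 1670 higher and 1934 lower. Leaving out N2 replicate 1, N2 replicate 3 or mutant replicate 2 left 1422, 1220 and 1228 calls.

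**Figure D1:**
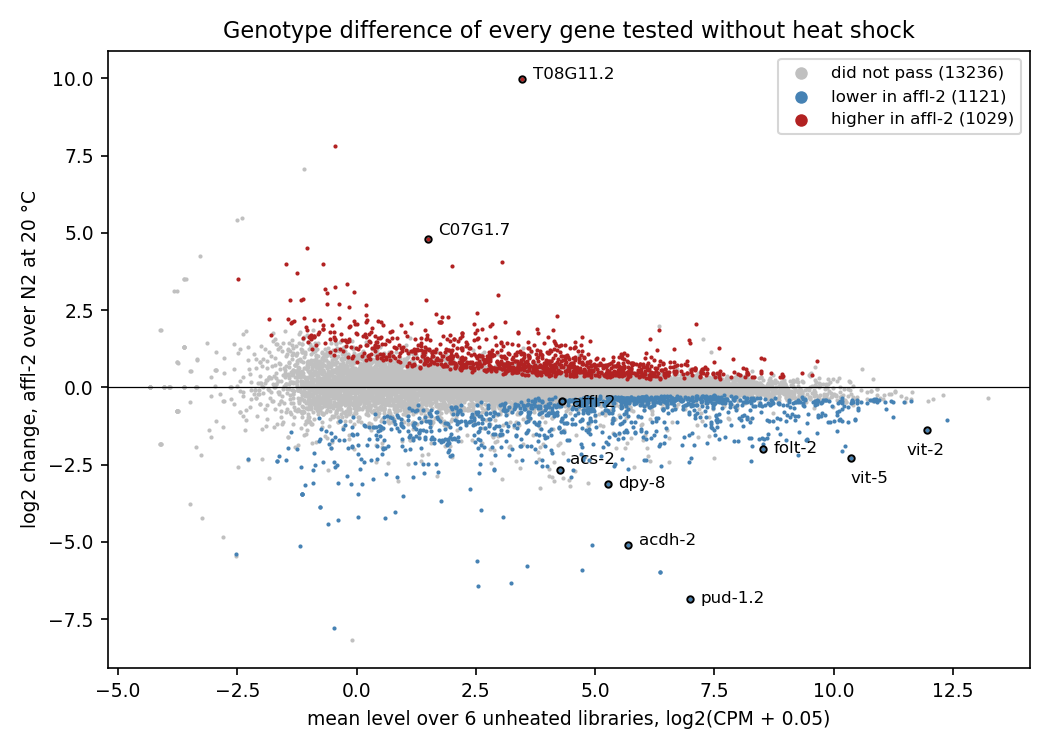
Log2 change of affl-2 over N2 at 20 °C (vertical) against the mean level over the 6 unheated libraries, as log2(CPM + 0.05) (horizontal), 1 point per gene tested. Of 15386 genes, 1029 passed as higher (red) and 1121 as lower (blue). T08G11.2 lies at 9.98 and pud-1.2 at -6.84, while affl-2 itself lies at -0.44.

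The affl-2 gene itself (III:434891-440142, build WBcel235) was examined first. Its mRNA stood at 22.2, 25 and 21.0 CPM in N2 and at 15.2, 15.4 and 19.6 CPM in the mutant. All 3 mutant libraries lay below all 3 N2 libraries, with mutant replicate 3 closest to N2. The log2 change was -0.44 ± 0.13 (adjusted p = 0.0374, edgeR). The call was lost when any N2 library or mutant replicate 1 or 2 was left out (adjusted p = 0.1043, 0.1283 and 0.05832 without N2 replicates 1, 2 and 3, and 0.1398 and 0.1421 without mutant replicates 1 and 2) with library size alone (0.1337), without the filter on low counts (0.06347) and with the 6 unheated libraries fitted alone (0.08896). Since the lesion is not given, this level does not check the genotype. Its paralog affl-1 was near 0 in both groups, with at most 0.0956 CPM in any library.

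The other genes of transcription elongation did not pass. Of 23 listed genes for P-TEFb, the super elongation complex, the PAF1 complex, FACT and the SPT factors, affl-2 was the only member called, 1 of 23 lower and 0 higher, with a median log2 change of -0.12, which was 0.07 with library size alone. Under the replicate block 4 passed as lower. The kinase gene cdk-9 stood at 45.8, 45.1 and 46.5 CPM in N2 and 46.0, 43.6 and 45.8 CPM in the mutant, so its groups overlapped. spt-4, which codes for a subunit of the DSIF elongation factor, stood at 20.5, 19.5 and 19.7 CPM against 15.6, 16.4 and 16.2 CPM. The mutant libraries were all lower, but its change of -0.31 ± 0.10 had an adjusted p of 0.0526 and passed only under the replicate block (0.03247).

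Heat shock genes were next examined at 20 °C, since their induction is the known setting of AFFL-2 in worms. hsf-1, which codes for the transcription factor that drives them, had 65.9, 69.5 and 62.5 CPM in N2 and 65.4, 53.3 and 61.4 CPM in the mutant, a change of -0.14 ± 0.12 (adjusted p = 0.493). The inducible small heat shock genes were barely expressed without heat. hsp-16.41 stood at 1.92, 0.376 and 5.51 CPM in N2 and at 0.243, 0.758 and 0.383 CPM in the mutant. hsp-70 stood at 3.18, 2.02 and 7.04 CPM in N2 and at 0.873, 2.65 and 1.91 CPM in the mutant. In both genes N2 replicate 3 was the highest library and the groups overlapped. Their log2 changes were -2.46 ± 0.84 (adjusted p = 0.0861) and -1.16 ± 0.44 (adjusted p = 0.106), and each passed when N2 replicate 2 was left out (0.003944 and 0.02881). hsp-16.41 also passed with DESeq2 (0.01346).

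Of 12 small heat shock protein genes tested, 2 rose (16.7%) and 0 fell. Their median was -0.65, but it rested on N2 replicate 3 and was -0.09 without that library. sip-1, a small heat shock protein of the germ line and embryo, rose from 166, 172 and 151 CPM to 343, 283 and 300 CPM (0.92 ± 0.12, adjusted p = 0.000292), so the groups were well apart. hsp-43 rose by 0.43 ± 0.13 (adjusted p = 0.0420), a call lost without N2 replicate 2 or 3 or mutant replicate 1 or 2 (adjusted p = 0.07014, 0.1632, 0.05406 and 0.1148). Under the replicate block 3 members were higher and 2 lower, and 2 were lower without N2 replicate 2. hsp-16.48 and hsp-16.49 are near-identical and had the same estimated counts, so they cannot be told apart, although both count among the 12.

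Among 11 HSP70 and HSP110 genes, 2 rose (18.2%) and 1 fell (9.09%). hsp-6, the mitochondrial HSP70, rose from 646, 683 and 630 CPM to 897, 779 and 881 CPM (0.39 ± 0.09, adjusted p = 0.0110, and 0.06073 without N2 replicate 3), without overlap. F11F1.1, which codes for an HSP70-related protein, rose by 1.36 ± 0.18 (adjusted p = 0.000292). F44E5.5, an inducible HSP70 gene, stood at 20.0, 24.9 and 80.2 CPM in N2 and at 11.8, 11.2 and 9.61 CPM in the mutant (-1.94 ± 0.45, adjusted p = 0.0175), and N2 replicate 3 again was the highest. That call was lost without mutant replicate 1 (0.06172) or 2 (0.05741) and with the 6 unheated libraries fitted alone (0.1394), while 3 members of the list were lower under the replicate block. Its near-identical neighbour F44E5.4 did not pass (-0.83 ± 0.86), and reads may be divided wrongly between the pair. The constitutive chaperone genes had smaller differences. hsp-1 had 2519, 2475 and 2606 CPM against 2184, 1989 and 2399 CPM (-0.21 ± 0.10, adjusted p = 0.184), and hsp-90 had 2684, 2248 and 2478 CPM against 2222, 2019 and 2166 CPM (-0.21 ± 0.11, adjusted p = 0.220). None of the 16 genes for HSP90, HSP40 and cochaperones passed, and 1 of 8 subunits of the CCT chaperonin fell (12.5%). It was cct-8 (adjusted p = 0.0209), a call lost without N2 replicate 1 or 3 or mutant replicate 1 or 2 (0.09029, 0.08305, 0.07499 and 0.1101), with library size alone (0.1888), without the filter (0.05666) and with the unheated libraries alone (0.05979). The medians of the HSP90 and CCT lists were -0.11 and -0.15 with TMM, but 0.07 and 0.03 with library size alone, so their direction depends on the scaling.

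The highest rise belonged to T08G11.2, a protein-coding gene on chromosome I (I:8919329-8920504). It had 1 count in the 3 N2 libraries together and 1383 in the mutant, or 22.6, 23.8 and 19.8 CPM, with the log2 change fitted at 9.98 ± 0.36 (adjusted p = 1.8e-09). The ratio of levels was 1412, with a 95% counting interval from 253 to 55799, which covers counting error only. Next to it, on the other strand, T08G11.3 (named after its values were seen) had 0 counts in N2 and 86 in the mutant, at least 9.75-fold higher with a floor of 3 counts per library. After heat shock T08G11.2 again was seen mainly in the mutant, with means of 0.0190 CPM in N2 against 26.2 CPM in the mutant. The kit keeps no strand, so reads of neighbouring or overlapping transcripts on the opposite strands are not separated by strand.

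Other genes went from a low level in N2 to a clear signal in the mutant. C07G1.7 rose from 0.0447, 0.282 and 0.246 CPM to 3.98, 8.86 and 3.20 CPM (4.78 ± 0.51, adjusted p = 8.13e-05). F59A1.9 rose from 0.671, 0.564 and 0.197 CPM to 8.54, 8.19 and 5.50 CPM (3.92 ± 0.37, adjusted p = 2.81e-05), and its neighbour fbxa-192, an F-box gene, rose by 2.11 ± 0.21. The cuticle collagen gene col-95 rose from 1.13, 2.33 and 1.68 CPM to 14.5, 10.4 and 16.2 CPM (3.0 ± 0.47), against the direction of most collagens below. The adjacent genes cld-1 and dod-21 were both higher. dod-21 rose by 2.11 ± 0.39, whereas cld-1 had 0, 0 and 2.88 CPM in N2 and 14.1 to 17.6 CPM in the mutant. The cld-1 call (4.04 ± 1.08, adjusted p = 0.0380) was lost without N2 replicate 1 or 2 (0.08078 and 0.07921) or mutant replicate 1 or 2 (0.07522 and 0.07462) with DESeq2 (0.1339), without the filter (0.05698) and with the unheated libraries alone (0.1395).

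Some of the genes that rose with the smallest adjusted p had moderate levels, unlike T08G11.2 and F59A1.9 above, which were nearly absent in N2. Y50D4B.4 went from 34.9, 37.1 and 36.2 CPM to 112, 103 and 103 CPM (1.56 ± 0.11). dpf-2, which codes for a dipeptidyl peptidase IV family protein, went from 46.0, 38.9 and 40.7 CPM to 94.2, 94.3 and 85.7 CPM (1.13 ± 0.10). tyr-4, a tyrosinase family gene, went from 117, 118 and 105 CPM to 273, 258 and 294 CPM (1.28 ± 0.12). In each of the 3 genes the libraries of a genotype lay close together and the groups were far apart.

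Among genes that averaged at least 1 in log2 CPM, the deepest fall was that of pud-1.2. The pud genes code for small nematode proteins known for rising in dauer larvae and in daf-2 insulin receptor mutants. They lie side by side on chromosome V (V:2322038-2329954). pud-1.2 fell from 153, 191 and 409 CPM to 1.79, 1.89 and 2.87 CPM (-6.84 ± 0.70, adjusted p = 0.000405). N2 replicate 3 was the highest for every pud gene and the mutant libraries never exceeded 3.71 CPM. All 5 members tested fell, with a median of -5.96, in every alternative. pud-2.1 and pud-2.2 had equal estimated counts and cannot be told apart, and pud-1.1, a copy of pud-1.2, was listed at 0 in the unheated libraries.

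Other genes were likewise nearly silent in the mutant. acdh-2, an acyl-CoA dehydrogenase gene, fell from 110, 107 and 83.9 CPM to 3.49, 3.93 and 1.39 CPM (-5.09 ± 0.26, adjusted p = 3.27e-07). BE0003N10.6 fell from 59.8, 66.6 and 29.6 CPM to 0.582, 0.994 and 1.00 CPM (-5.91 ± 0.39). The adjacent genes D1014.6 and D1014.7 had log2 changes of -6.34 and -5.61, and Y71G12B.18 had -6.43. lips-6, a lipase-related gene, fell from 18.1, 18.4 and 10.8 CPM to 0.728, 0.568 and 1.29 CPM (-4.18 ± 0.35). The groups did not overlap in any of these genes, and all of these calls held in every alternative.

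**Figure D2:**
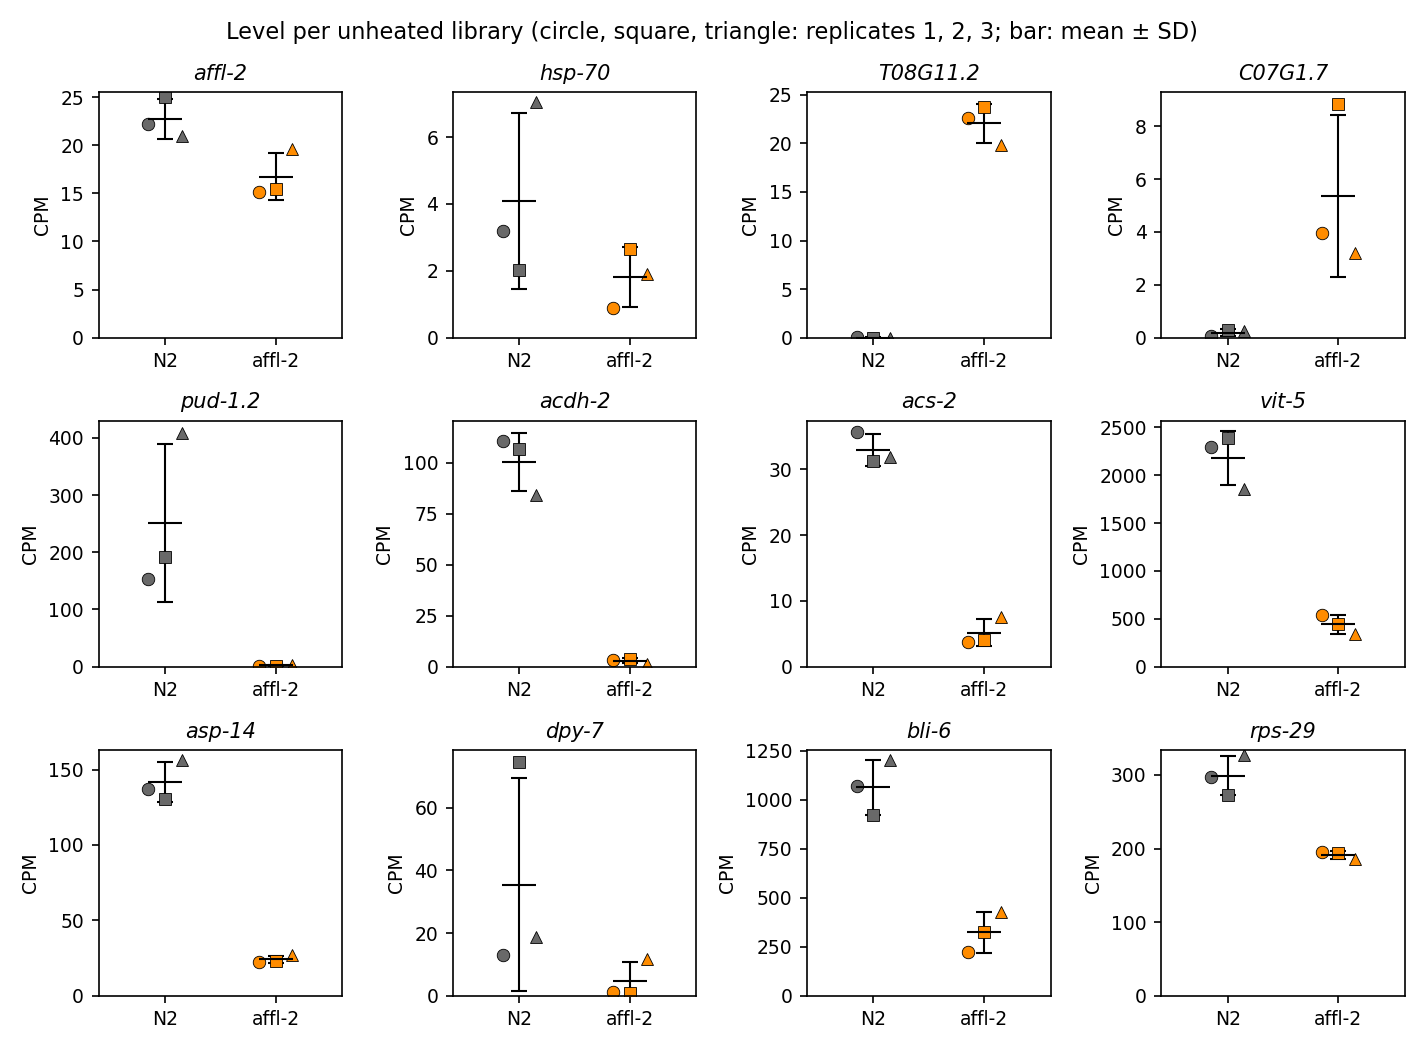
Level in CPM of 12 genes in each unheated library, N2 in grey and affl-2 in orange, with circles, squares and triangles for replicates 1, 2 and 3 and bars for mean ± SD of 3 libraries. The groups are apart for acdh-2, acs-2, vit-5, asp-14 and rps-29, they overlap for hsp-70, and N2 replicate 2 alone lifts the N2 mean of dpy-7.

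Yolk protein mRNAs were lower in the mutant. Vitellogenins are made in the intestine and taken up by oocytes, mainly in adults. All 6 vit genes fell, with a median of -1.53 against 0.00 for all genes tested. vit-5 fell from 2291, 2389 and 1860 CPM to 540, 446 and 344 CPM (-2.30 ± 0.29, adjusted p = 0.000487). vit-2 fell from 5882, 5885 and 5427 CPM to 2585, 2183 and 1891 CPM (-1.37 ± 0.19, adjusted p = 0.000418). vit-6 had the smallest change, from 7341, 7267 and 6725 CPM to 3801, 3431 and 3131 CPM (-1.04 ± 0.15). Together the 6 genes made up 1.57 to 1.84% of an N2 library and 0.647 to 0.891% of a mutant library. All 6 passed in every alternative that tested against no change.

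The presence of vitellogenin mRNA bears on the stage of the animals, which the labels give as L4. The time from picking to harvest beyond the 30 min is not given. col-19, a collagen switched on in the adult, stood at 1132, 865 and 986 CPM in N2 and at 792, 889 and 618 CPM in the mutant (-0.38 ± 0.20, adjusted p = 0.247), so it was present in both genotypes and the groups overlapped. lin-29, which codes for the factor that triggers the adult programme of the epidermis, had 23.8, 38.1 and 27.9 CPM against 26.8, 22.1 and 35.8 CPM. None of 13 genes of the larval-to-adult switch passed, and lin-42, a timing gene that cycles with each molt, passed as lower under the replicate block (adjusted p = 0.02742), with DESeq2 (0.04421) and without N2 replicate 1 (0.03598) or mutant replicate 3 (0.0007107). The part of developmental timing in the differences described here was not tested.

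Other intestinal genes moved in both directions. Of 26 listed intestinal genes, 4 rose (15.4%) and 8 fell (30.8%), with a median of -0.03, and 8 rose under the replicate block. The shares of all genes were 6.69% and 7.29%. The regulators and brush-border genes were not lower. elt-2, the GATA factor of the intestine, had 34.6, 24.3 and 32.7 CPM in N2 and 38.8, 39.9 and 42.9 CPM in the mutant (0.41 ± 0.14, adjusted p = 0.0685). It passed as higher in 5 of 14 alternatives, with 0.01321 under the replicate block and 0.0443 at the lowest when 1 library was left out. vha-6, a proton pump subunit of the intestinal brush border, had 550, 452 and 449 CPM against 469, 521 and 555 CPM (0.09 ± 0.13). ges-1, the gut esterase, had 41.8, 38.2 and 49.9 CPM against 46.6, 45.7 and 56.8 CPM. The groups overlapped for vha-6 and ges-1 and were narrowly apart for elt-2.

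The intestinal genes that fell included lysosomal and digestive proteases. Of 23 cathepsin genes (asp, cpr, cpl and cpz, some of them also in the intestinal list), 3 rose and 12 fell. asp-14 fell from 137, 131 and 156 CPM to 22.3, 22.9 and 27.0 CPM (-2.55 ± 0.17, adjusted p = 2.01e-06). cpr-4 fell from 377, 392 and 381 CPM to 165, 158 and 163 CPM (-1.24 ± 0.17). asp-1, the most abundant of those named here, fell from 3444, 2801 and 3293 CPM to 1407, 1627 and 1879 CPM (-0.96 ± 0.15). The libraries within each genotype were close to each other and the groups did not overlap. Of 10 lysozyme genes, which act on bacteria in the gut, 6 fell (60.0%) and 0 rose, with a median of -0.81. ilys-5 fell from 596, 465 and 571 CPM to 162, 183 and 179 CPM (-1.64 ± 0.15).

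Genes of fat metabolism were described in 2 lists, whose difference was not tested. Of 27 genes of fat breakdown and the glyoxylate pathway, 7 fell (25.9%) and 2 rose (7.41%), with 12 lower under the replicate block. acs-2, an acyl-CoA synthetase that feeds mitochondrial beta-oxidation, fell from 35.7, 31.2 and 31.9 CPM to 3.78, 4.12 and 7.51 CPM (-2.68 ± 0.22, adjusted p = 1.22e-05). icl-1, the glyoxylate pathway enzyme, fell from 668, 656 and 754 CPM to 231, 202 and 303 CPM (-1.50 ± 0.13). acdh-1, a marker of branched-chain and propionate breakdown, fell from 2019, 1526 and 1607 CPM to 635, 960 and 779 CPM (-1.12 ± 0.17). Of 16 fatty acid desaturase and elongase genes, 3 rose and 0 fell, with 7 higher under the replicate block, 8 with library size alone, 5 without mutant replicate 1 and 1 without N2 replicate 3. fat-5, a palmitoyl-CoA desaturase, rose from 12.7, 7.99 and 11.8 CPM to 20.8, 28.7 and 34.1 CPM (1.36 ± 0.27, adjusted p = 0.00511). fat-7, a stearoyl-CoA desaturase, rose from 85.8, 45.6 and 46.3 CPM to 89.0, 173 and 162 CPM (1.25 ± 0.36, adjusted p = 0.0428). That call was lost in 7 of 14 alternatives. Among them were the fits without N2 replicate 2 or 3 or mutant replicate 2 or 3 (0.1268, 0.1408, 0.1311 and 0.06359). Others were without the filter (0.0758) and with the unheated libraries alone (0.1029). fat-6, a close relative of fat-7, did not pass (-0.34 ± 0.20). fat-3, which codes for the delta-6 desaturase, rose by 0.63 ± 0.15, a call lost without N2 replicate 3 (0.06029).

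Single genes of nutrient use also fell by large amounts with tight replicates. asns-2, an asparagine synthetase gene, fell from 100, 107 and 128 CPM to 19, 18.1 and 29.1 CPM (-2.34 ± 0.17, adjusted p = 3.63e-06). folt-2, which codes for a putative folate transporter, fell from 645, 534 and 584 CPM to 120, 173 and 149 CPM (-2.0 ± 0.15). In both genes every mutant library lay far below the lowest N2 library.

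Cuticle collagen mRNAs were lower. C. elegans sheds its cuticle at each molt, and collagen genes are switched on in sequence as the next one is made. Of 132 col genes tested, 59 fell (44.7%) and 5 rose (3.79%), with a median of -0.66 (-0.48 with library size alone). col-71 fell from 1761, 1770 and 2166 CPM to 380, 423 and 733 CPM (-1.89 ± 0.22, adjusted p = 0.000170), and col-175 fell by 1.83 on the log2 scale. The col genes made up 5.37 to 6.39% of an N2 library and 4.02 to 5.03% of a mutant library. The number lower was 36 without N2 replicate 3 and 38 without N2 replicate 1, and 41 to 58 without any other library.

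Of 14 further collagens known from body-shape mutants (dpy, sqt, rol, bli and lon), 12 fell and all 14 had no overlap between groups, where 15.6% of all genes tested had none with the mutant lower. Their median was -1.51. bli-6 fell from 1069, 920 and 1201 CPM to 221, 323 and 429 CPM (-1.71 ± 0.22, adjusted p = 0.000321). sqt-3, an essential collagen, fell from 700, 981 and 1010 CPM to 277, 177 and 542 CPM (-1.43 ± 0.37, adjusted p = 0.0289). That call was lost in 6 of 14 alternatives, with adjusted p up to 0.1267. Among them were the fits without N2 replicate 2 or 3 or mutant replicate 1 or 2 (0.07082, 0.08741, 0.09712 and 0.05326). Mutant replicate 3 was the highest mutant library for these genes. The number that fell rested on single libraries, with 6, 4, 5 and 5 lower without N2 replicate 2, N2 replicate 3, mutant replicate 1 and mutant replicate 2, 6 without the filter on low counts and 2 when the 6 unheated libraries were fitted alone.

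The 6 annular furrow collagens, expressed early in the making of each cuticle, varied widely among libraries. dpy-7 stood at 12.9, 74.6 and 18.8 CPM in N2 and at 1.21, 0.900 and 11.8 CPM in the mutant. N2 replicate 2 was far above the other N2 libraries, and mutant replicate 3 reached nearly the level of N2 replicate 1. In the other 5 genes N2 replicate 2 was again the highest library and mutant replicate 3 the highest mutant library, below N2 replicate 1. All 6 had log2 changes between -3.27 and -2.88, but only dpy-8 passed (-3.12 ± 0.87, adjusted p = 0.0450). The number that fell was 0 without N2 replicate 2, N2 replicate 3, mutant replicate 1 or mutant replicate 2, without the filter or with the unheated libraries alone, and 6 without mutant replicate 3 or with DESeq2. After heat shock none of the 6 passed (median -1.43).

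**Figure D3:**
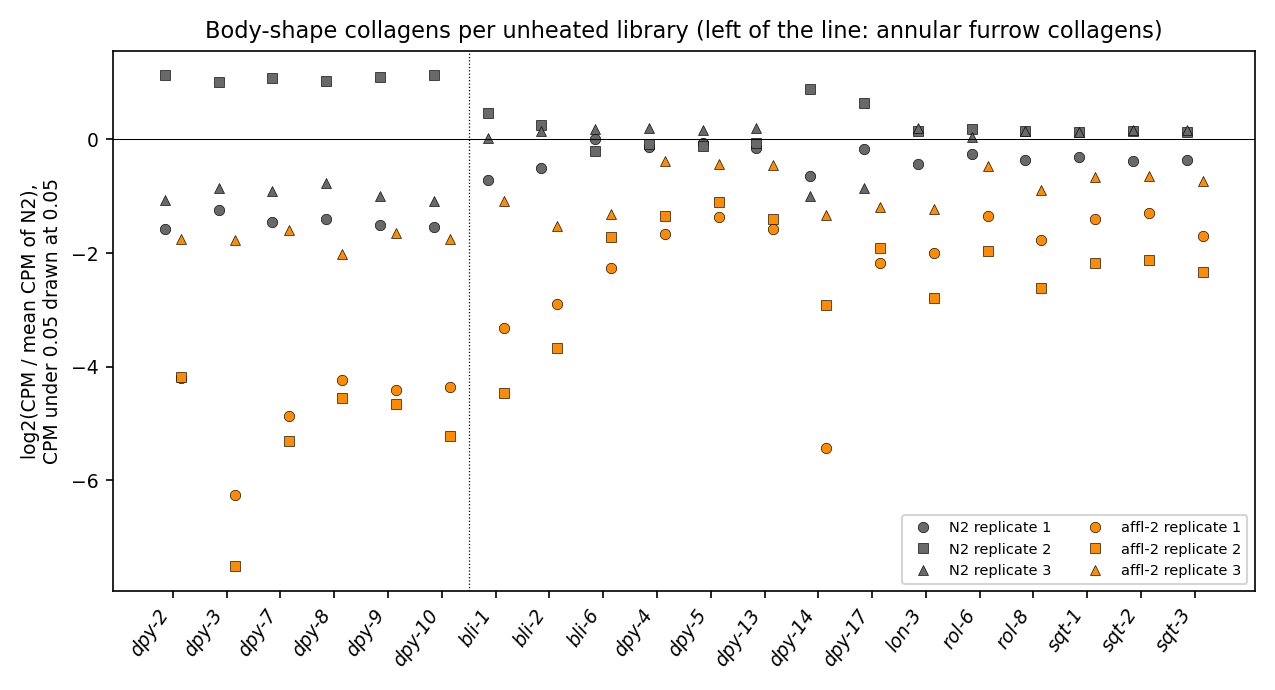
Level of 20 body-shape collagen genes in each unheated library as log2 of CPM over the mean CPM of N2 (vertical), with N2 in grey and affl-2 in orange and 1 symbol per replicate. The 6 annular furrow collagens (left of the dotted line) are high in N2 replicate 2 and low in mutant replicates 1 and 2, while the others differ more evenly.

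Genes that act with the collagens moved less uniformly. Of 30 molting genes 4 fell (13.3%) and 0 rose, beside 7.29% lower of all genes. The number lower was 10 under the replicate block or with DESeq2 and 14 without mutant replicate 3. It was 1 or 2 without N2 replicate 2 or 3 or mutant replicate 1 or 2. The number higher was 3 under the replicate block and 4 with library size alone, and without mutant replicate 1 it was 4 against 1 lower. dpy-18, a subunit of the enzyme that hydroxylates collagen prolines, fell from 252, 254 and 294 CPM to 88.2, 109 and 182 CPM (-1.08 ± 0.23, adjusted p = 0.00863, and 0.05038 with the unheated libraries alone). mlt-10, a molting gene, had 218, 321 and 364 CPM in N2 and 144, 66.4 and 238 CPM in the mutant (-1.01 ± 0.39, adjusted p = 0.118). It passed as lower in 2 of 14 alternatives, with 0.01907 under the replicate block and 0.0105 when 1 library was left out. Of 45 hedgehog-related genes, which code for secreted proteins of the epidermis, 9 fell (20.0%) and 1 rose (2.22%). The number lower was 22 under the replicate block and also without mutant replicate 3. It was 18 with DESeq2 and 5 without N2 replicate 3 or mutant replicate 2. wrt-4 fell from 244, 253 and 279 CPM to 90.6, 62.1 and 147 CPM (-1.37 ± 0.26). The abu genes, part of which are expressed in the pharyngeal cuticle, fell in 10 of 13 cases, with a median of -1.39. The pqn genes, listed with them, went both ways. Of 52 tested, 10 fell and 7 rose, with a median of -0.11.

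Histone genes of the multicopy clusters were lower. Of 44 his genes tested 21 fell and 1 rose, with a median of -1.20, and between 15 and 18 fell when any 1 library was left out. Replication-dependent histone mRNAs mostly lack poly(A) tails, so poly(A) selection keeps little of them. his-17 stood at 0.908, 1.68 and 1.52 CPM in N2 and at 0, 0.0901 and 0.0910 CPM in the mutant, and his-3 at 3.12, 4.0 and 6.62 CPM against 0.805, 0.475 and 0.728 CPM (-2.76 ± 0.37). These levels are low and copies of a histone gene are near-identical (his-19 and his-21 had equal counts), so single members are uncertain. The his genes together held 0.0374 to 0.0449% of an N2 library and 0.0401 to 0.0424% of a mutant library, so the ranges of the sum overlapped.

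The nsp genes, families of short nematode-specific peptides, split by family. Of 34 tested, 19 fell and 2 rose. In nspb 6 of 7 and in nspc 13 of 16 tested members fell, with medians of -1.73 and -1.64, while in nspd 2 of 9 rose and 0 fell. nspc-9 fell from 11.7, 11.7 and 14.6 CPM to 1.64, 2.06 and 2.23 CPM (-2.67 ± 0.24, adjusted p = 1.78e-05), without overlap. nspc-2 and nspc-6 had equal counts and cannot be told apart.

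Genes for the protein-making and protein-degrading machinery were slightly lower. Of 76 genes for proteins of the cytosolic ribosome, 46 fell (60.5%) and 0 rose, with a median of -0.42 and the widest fall at -0.64. rps-29 went from 297, 273 and 327 CPM to 195, 194 and 185 CPM (-0.64 ± 0.11, adjusted p = 0.00218). These genes held 7.36 to 8.40% of an N2 library and 6.59 to 7.10% of a mutant library. Of 33 proteasome genes 20 fell and 0 rose, with a median of -0.30. pbs-1, a subunit of the catalytic core, went from 186, 176 and 190 CPM to 139, 124 and 147 CPM (-0.43 ± 0.09). Both counts are fragile because the differences are small. With library size alone 6 ribosomal and 1 proteasome genes were lower, with medians of -0.23 and -0.12, and without the filter 30 and 9. The unheated libraries alone gave 4 proteasome genes. The ribosomal count was 3, 3, 3, 11 and 24 without N2 replicate 1, N2 replicate 3, mutant replicate 1, mutant replicate 2 and mutant replicate 3. The proteasome count was 2, 3, 6, 1 and 13 without the same libraries.

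Some families of regulatory and defence genes with many members had more rises than falls, but not all. Of 49 antimicrobial peptide genes tested, 4 rose (8.16%) and 6 fell (12.2%), with 1 to 5 in each direction when 1 library was left out. The lysozymes described above had falls only. Of 196 nuclear hormone receptor genes, 25 rose (12.8%) and 2 fell (1.02%), with a median of 0.31 that was positive under both scalings. Under the replicate block 46 rose, with library size alone 80 rose, and the count was 14 without N2 replicate 3 or mutant replicate 2 and 42 without mutant replicate 3. nhr-5 rose from 12.3, 11.2 and 11.9 CPM to 23.9, 23.1 and 21.8 CPM (0.96 ± 0.12, adjusted p = 0.000283). One of the 2 that fell, nhr-114, which is known for protecting the germ line through tryptophan and vitamin B12 metabolism, went from 202, 235 and 198 CPM to 95.1, 129 and 104 CPM (-0.95 ± 0.13).

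Of 114 fbxa genes, which code for F-box adaptors of ubiquitin ligases, 19 rose (16.7%) and 7 fell (6.14%). Of 95 other F-box, MATH and BTB genes 11 rose (11.6%) and 3 fell (3.16%), with 21 higher under the replicate block. Without mutant replicate 2 the numbers that rose were 10 and 4, without N2 replicate 1 they were 12 and 5, and with library size alone 33 and 29. The number of fbxa genes lower was 3 without N2 replicate 1 or mutant replicate 2, and of the other list 6 were lower under the replicate block. fbxa-189 rose from 2.24, 1.88 and 2.26 CPM to 9.41, 9.57 and 7.41 CPM (2.05 ± 0.24, adjusted p = 0.000147). Of 125 C-type lectin genes, secreted proteins often linked to defence, 18 rose (14.4%) and 7 fell (5.6%). The number higher was 11 without N2 replicate 2 or 3 and 31 with library size alone, and 13 were lower under the replicate block. clec-47 fell from 54.8, 34.9 and 28.6 CPM to 3.93, 8.19 and 3.78 CPM (-2.89 ± 0.36). Genes of detoxification moved both ways. Of 62 UDP-glucuronosyltransferase genes, 13 rose (21.0%) and 12 fell (19.4%), with 8 higher without N2 replicate 3 or mutant replicate 2. ugt-19 rose by 1.48 ± 0.20, while ugt-26 fell from 137, 119 and 129 CPM to 30.2, 35.4 and 37.7 CPM (-1.90 ± 0.15). Of 55 cytochrome P450 genes, 8 rose (14.5%) and 11 fell (20.0%). The number higher was 3, 3 and 2 without N2 replicate 1, N2 replicate 3 and mutant replicate 2, and 7 were lower without N2 replicate 1 or mutant replicate 1. Of the cyp-35 genes, 4 of 7 were among those lower.

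**Figure D4:**
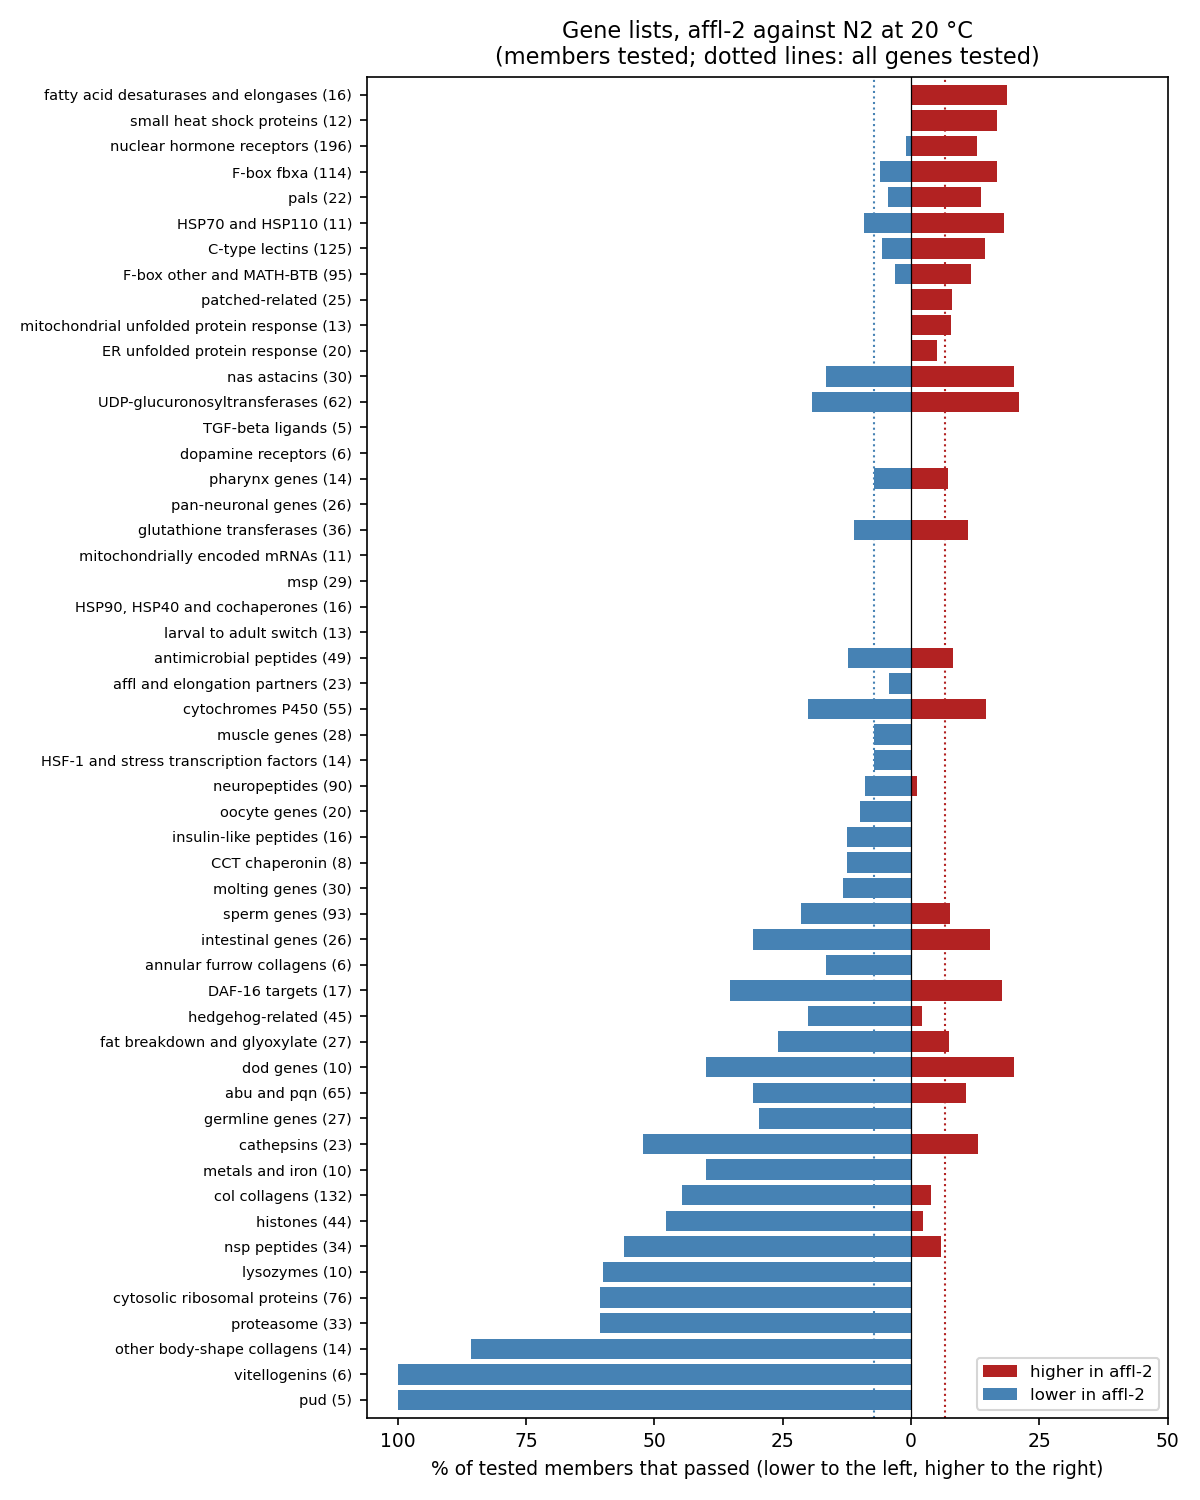
Percent of tested members of each list that passed as higher (right, red) or lower (left, blue) in affl-2 at 20 °C, with the number of members tested in brackets and dotted lines at the values of all genes tested (6.69% higher, 7.29% lower). Lists overlap and have no test of their own. The pud genes and vitellogenins were lower in every member tested, and nuclear hormone receptors had 12.8% higher against 1.02% lower.

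Markers of other tissues showed how far the differences reached. None of 26 pan-neuronal genes passed (1 lower under the replicate block) and their median was 0.00, and rab-3, a synaptic vesicle gene, had 18.4, 24.9 and 21.9 CPM in N2 and 17.9, 18.6 and 22.9 CPM in the mutant. None of 6 dopamine receptor genes and 5 TGF-beta ligand genes passed, and of 90 neuropeptide genes 8 fell and 1 rose (15 lower under the replicate block, and 4 without N2 replicate 2, N2 replicate 3 or mutant replicate 1), where 8.89% lower stands beside 7.29% of all genes. Of 28 muscle genes 2 fell (7.14%, near the 7.29% of all genes), and 8 fell under the replicate block. The 2 were mlc-1 (-0.62 ± 0.13) and mup-2 (-0.60 ± 0.11), a myosin light chain and a troponin T gene. Of 27 germline genes 8 fell (29.6%) and 0 rose, with a median of -0.23 (-0.04 with library size alone, which left 1 lower). Without N2 replicate 1 or mutant replicate 2 the germline count was 2, with 4, 3 and 3 without N2 replicate 2, N2 replicate 3 and mutant replicate 3. fbf-2, a regulator of germline stem cells, fell from 53.5, 49.2 and 48 CPM to 33.0, 28.6 and 34.9 CPM (-0.64 ± 0.11, adjusted p = 0.00165). None of 29 genes for major sperm proteins passed (1 higher under the replicate block), and they held 0.178 to 0.244% of an N2 library and 0.236 to 0.294% of a mutant library. Of 93 listed sperm genes 20 fell, but 19 of these were the nspb and nspc members described above, and 7 rose (17 under the replicate block, 3 without N2 replicate 3 and 16 without mutant replicate 3). Of 20 oocyte genes 2 fell.

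Stress pathways other than heat shock were examined with their own lists. Of 20 genes of the unfolded protein response of the endoplasmic reticulum, 1 rose (5.0%) and 0 fell, with 3 lower under the replicate block. The riser was pek-1, a stress sensor kinase of that compartment, which went from 42.5, 40.9 and 45.1 CPM to 57.4, 60.8 and 57.8 CPM (0.45 ± 0.09, adjusted p = 0.00345). hsp-4, the BiP chaperone gene that marks this response, had 472, 410 and 576 CPM against 432, 450 and 482 CPM (-0.10 ± 0.14). Of 13 genes of the mitochondrial unfolded protein response, 1 rose (7.69%), hsp-6, and 3 rose under the replicate block. Of 17 genes known as targets of DAF-16, the transcription factor held back by insulin signalling, 3 rose (17.6%) and 6 fell (35.3%). Under the replicate block these numbers were 5 and 9. daf-16 itself had 174, 218 and 192 CPM in N2 and 199, 199 and 231 CPM in the mutant (0.11 ± 0.11). Of 11 mRNAs encoded by the mitochondrial genome none passed, while 2 were lower under the replicate block and 2 were higher without mutant replicate 3.

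The heated libraries share no library with the comparison above, although the spread of each gene was estimated over all 12. In them 3034 genes differed between the genotypes (19.7%), 1561 higher (10.1%) and 1473 lower (9.57%). Of the 1029 genes higher at 20 °C, 611 were also higher after 33 °C, which is 59.4% of the first list and 39.1% of the second. Of the 1121 genes lower at 20 °C, 732 were also lower after 33 °C, 65.3% of the first list and 49.7% of the second. The median log2 changes were 0.78 and -0.79 at 20 °C and 0.61 and -0.60 after heat. Among the genes with large changes, pud-1.2 lay at -6.84 and -6.36, acdh-2 at -5.09 and -5.59, C07G1.7 at 4.78 and 5.36 and vit-5 at -2.30 and -2.82. B0205.13, also among the 15 highest rises, lay at 2.40 and 0.20 (adjusted p after heat = 0.758), and its interaction did not pass (adjusted p = 0.214). Of the ribosomal genes 0 of 76 passed after heat, with a median of -0.14, and the interaction passed for 0 of them.

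The interaction, which tests whether the genotype difference itself differed between the temperatures, passed for 110 genes in all (0.715% of those tested, 0.0455% in the positive and 0.669% in the negative direction) and for 28 of the 2150 genes called at 20 °C, 18 higher and 10 lower. Among the genes called at 20 °C in each of those fits, it passed for 67 with DESeq2 and for 75 under the replicate block. In 10 genes, all higher at 20 °C, the mutant was lower after heat with a call in each condition. They were nhx-3, F26F12.3, spe-36, ugt-13, srdh-1, sqst-1, cnp-3, Y38H6C.8, gst-20 and srg-34. sqst-1, which codes for the autophagy receptor p62, had means of 60.0 CPM in N2 against 93.1 CPM in the mutant at 20 °C (0.63) and of 459.7 and 194 CPM after heat (-1.25). Y38H6C.8 was near 0 at 20 °C, with means of 0.0776 and 0.382 CPM, and had 37.0 and 1.64 CPM after heat (interaction -6.69). It passed the filter on low counts only through the heated libraries, so its call at 20 °C is not separate from them. Its call at 20 °C was lost without N2 replicate 1 or 3 or mutant replicate 2 (adjusted p = 0.09029, 0.07944 and 0.1173). The calls at 20 °C of ugt-13 and cnp-3 were also lost without single libraries, that of ugt-13 without N2 replicate 1 or 3 or mutant replicate 2 or 3 (adjusted p = 0.1171, 0.1418, 0.1632 and 0.0535) and that of cnp-3 without N2 replicate 2 or 3 (0.07086 and 0.06956).

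**Figure D5:**
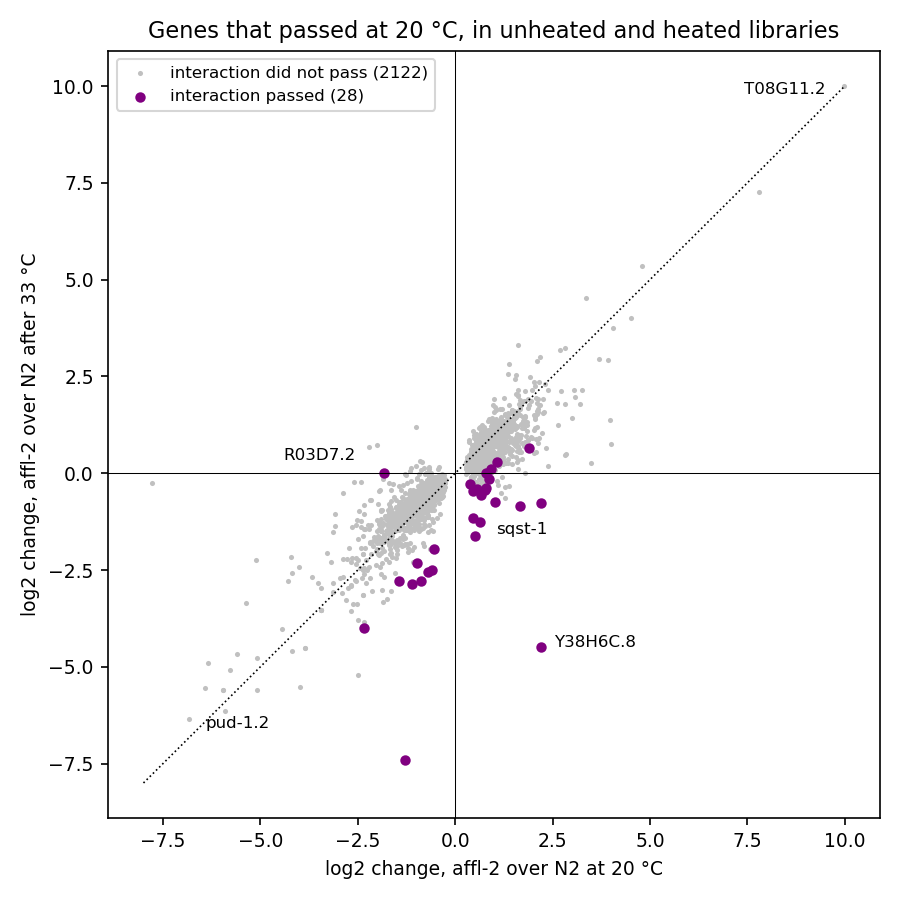
Log2 change of affl-2 over N2 after 33 °C (vertical) against that at 20 °C (horizontal) for the 2150 genes that passed at 20 °C, with the 28 whose interaction passed in purple and a dotted line of equal change. T08G11.2 and pud-1.2 lie near the line, while Y38H6C.8 lies at 2.21 and -4.49.

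The positions of the genes were described across the genome. On chromosome X 9.04% of genes tested rose and 6.82% fell, and on chromosome V 8.85% rose and 8.72% fell. On chromosome I 3.90% rose and 6.11% fell, and on chromosome III 4.74% rose and 6.45% fell. Within 1 Mb of affl-2 on chromosome III, 207 other genes were tested, of which 17 rose and 13 fell (8.21% and 6.28%). Of the 170 genes that passed with changes beyond 4-fold, 49 lay in 21 runs of neighbouring tested genes changed in the same direction. The longest was that of the pud genes, with 5, and others held histone genes, nspc genes and the pairs D1014.6 with D1014.7 and T08G11.2 with T08G11.3. Some runs hold copies with equal estimated counts, which count 1 signal more than once (pud-2.1 with pud-2.2, his-19 with his-21, numr-1 with numr-2). No such share was computed over all genes tested, so whether the changed genes cluster was not tested.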

How the data were processed

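The authors deposited, per the file headers, estimated counts, TPM and effective length per transcript for each library. Per the submitters' processing notes the tools were bcl2fastq 1.8.4 and kallisto, whose version is not given, with build WBcel235. Per the labels' protocols, poly(A) RNA was fragmented to about 200 nt and read as single reads of 50 nt. The deposited TPM, scaled by the authors for length and depth, and the effective lengths were used only for offsets in 1 alternative.

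Here estimated counts were summed per gene by sequence name (22010 genes, 21842 matched to Ensembl release 115) and rounded. Genes were filtered with filterByExpr (minimum count 10), which left 15386 and set aside 6624. TMM factors and tests came from edgeR 4.0.16 (R 4.3.3), with 1 robust quasi-likelihood fit of 4 group means over 12 libraries (common biological coefficient of variation 0.1475, with 8 residual degrees of freedom). DESeq2 1.42.0 was an alternative. Tested on simulated data for this comparison (15265 genes tested), the fit recovered 75 of 100 genes changed by 1 and 91 of 99 changed by 2 on the log2 scale, with 11 false calls and none in the wrong direction. The simulated counts were drawn for each gene independently from the fitted means and spread. Variation shared by many genes within a library was therefore absent, and the simulation does not measure how many of the real calls are false. Pairs of replicates differed by more than counting noise (chi-square per degree of freedom 11.4 to 31.6), so none was a duplicate.

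The titles number the replicates 1 to 3 in each group, but the labels of mutant replicates 1 and 2 carry each other's library number. Deviations of same-numbered N2 and mutant libraries from their group means correlated at 0.07, -0.41 and 0.12 as titled and at 0.33, 0.20 and 0.12 with those numbers exchanged. With the numbers exchanged, 2 pairs of libraries with different numbers also exceeded the value of pair 3, at 0.20 (N2 replicate 2 with mutant replicate 3) and 0.18 (N2 replicate 3 with mutant number 1). Because every same-numbered pair exceeded 0.1, the exchanged numbers were taken to pair the libraries. That fit is the replicate block in the text. The pairing rests on these data and on the library numbers, not on a stated shared day. A block chosen by such correlations can lower the estimated spread and so raise the number of calls. Calls gained only under it are therefore described and are not separate support.

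The members and the 52 gene lists were chosen with earlier results of these data known. 13 listed names matched no symbol, and the list of mitochondrially encoded mRNAs was taken by chromosome after its symbols matched none. The sperm list holds the nspb, nspc and nspd families of the nsp list. Genes named were the 15 highest and 15 lowest log2 changes among genes that passed without overlap and averaged at least 1 in log2 CPM, the 10 smallest adjusted p in each direction, all members of 6 lists, up to 4 of each other list by adjusted p, affl-2, affl-1 and hsf-1. T08G11.3, rps-29, fat-5, fat-6, fat-7, vha-6, elt-2, ges-1, col-19, lin-29, mlt-10, cdk-9, daf-16, hsp-90, icl-1, acdh-1, pud-1.1, lea-1, R03D7.2, fipr-11 and the genes with opposite calls after heat were named after their values were seen. Lists have no test. Their counts are to be read beside the 6.69% higher and 7.29% lower of all genes tested. No sequence was used.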

Additional observations from a re-analysis of the deposited data

Results flagged for a closer look

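For 21 of the genes described, the genotype difference itself differed between 20 °C and 33 °C (interaction, edgeR, adjusted p under 0.05). Values are the log2 change after heat minus that at 20 °C. Among heat shock genes it was -3.4852 for hsp-70, -1.6726 for hsp-4, -1.2 for hsp-110, -0.778 for hsp-1 and -0.6506 for hsp-6. Of these, hsp-6 passed at 20 °C, where it was higher in the mutant.

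The 10 genes with opposite calls had -6.6949 for Y38H6C.8, -2.5105 for srg-34, -2.1324 for ugt-13, -1.8821 for sqst-1, -1.7683 for spe-36, -1.6144 for cnp-3, -1.2255 for gst-20, -1.1928 for srdh-1, -0.9536 for nhx-3 and -0.9067 for F26F12.3. Genes with a call at 20 °C and a smaller or absent difference after heat were B0547.3 at -1.2492, lea-1 at -0.8237 and R03D7.2 at 1.8505. fipr-11, lower in both conditions, had -6.106, with 0 counts in the heated mutant. Its call at 20 °C (adjusted p = 0.0337, edgeR) was lost when N2 replicate 1 or 3 or any mutant library was left out (0.06238 to 0.1352) and with library size alone (0.05037).

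Among secreted signals and receptors without a call at 20 °C, daf-7, a TGF-beta ligand gene, had -1.6584 and dop-2, a dopamine receptor gene, had 1.078.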

How the results depend on the processing

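No call changed sign among the genes described or among all genes called under any alternative that gave a value. Of 286 genes described and tested, 196 passed. Of these, 145 passed in each of the 14 alternatives that gave a value for the gene. The other 51 lost the call in at least 1, and of 90 that did not pass 46 gained it in at least 1. Counts of all, higher and lower calls were 2150, 1029 and 1121. With library size alone they were 3386, 2737 and 649, with 604 higher beyond 2-fold, and 2168 higher and 406 lower in both conditions (against 611 and 732). With the replicate block and mutant replicates 1 and 2 exchanged they were 3604, 1670 and 1934, with 1088 higher and 1260 lower in both conditions. With the block as titled, 2670 genes passed. The 6 unheated libraries alone gave 735 lower, and the test against a 2-fold change gave 104, 24 and 80. The interaction passed for 28 of the genes called, for 67 with DESeq2 and for 75 with the exchanged block. Under that block, list counts that moved by over 1.5 times are given beside the list, and smaller moves are not. Of the 1029 and 1121 calls, DESeq2 kept 1002 and 1104. Leaving out 1 unheated library at a time gave 1220 to 2550 calls, 582 to 1350 higher and 638 to 1200 lower, 244 to 511 higher and 321 to 681 lower beyond 2-fold, 397 to 680 higher and 473 to 680 lower in both conditions, and 20 to 39 interactions. At an unadjusted p under 0.05, 4383 genes differed. Depth limits genes with few counts, and reads of near-identical copies cannot be assigned. Small differences, as in the ribosomal and proteasome lists, are the most dependent on scaling and on single libraries. The cause of these shifts was not tested.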
